A study of Mus musculus with 6 samples.

Results

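In dendritic cells taken from mouse tumours, 8 genes for chemokine receptors that direct myeloid cells were followed: Ccr1, Ccr2, Ccr9, Cxcr2, Cxcr3, Cxcr4, Cxcr6 and Cx3cr1. They were chosen by name, as the rows of the count table whose Ensembl identifier carries 1 of these symbols, and all 8 had a row among the 26519 genes. Dendritic cells, which take up antigen and present it to T cells, were collected on day 10 from tumours of MC38, a transplantable mouse colon carcinoma line. The hosts were either wild-type (WT) or MAVS knockout (MAVS KO), with 3 libraries in each group. MAVS is the mitochondrial adaptor of the cytosolic RNA sensors. Mouse strain, age and sex, the MAVS allele, the sorting of the cells and any pooling of animals were not given in the sources used here. Since no label states that replicates came from separate animals, p-values reflect the spread of these libraries alone.

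Chemokine receptors are G protein-coupled receptors that steer leukocytes along gradients of small secreted proteins, the chemokines. On binding a ligand they signal through the Gi class of G proteins to phosphoinositide 3-kinase and Rac, and the cell moves toward the source. In the myeloid lineage, CCR2 brings monocytes out of the bone marrow and into inflamed tissue, CX3CR1 marks monocytes, many macrophages and part of the dendritic cells, and CXCR2 is the main receptor of neutrophils.

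Library totals were 14466640 to 20851733 counts. Mavs itself was at 33.9, 39.7 and 39.7 CPM (counts relative to the library total, scaled by the TMM method) in WT and at 8.99, 12.8 and 9.45 CPM in MAVS KO libraries, lower in every knockout library (log2 fold change -1.86, SE 0.18, edgeR adjusted p = 0.0017). Of the 12580 genes tested, 354 (2.81%) passed an adjusted p of 0.05, 222 of them higher and 132 lower in MAVS KO. Scaling by library size alone shifted the median of all genes by -0.17 (log2) and gave 102 higher and 341 lower. Of the type 1 dendritic cell markers, Clec9a stood at 5.61 to 10.3 CPM and Naaa at 428.1 to 664.1 CPM over the 6 libraries. Mgl2, read as a type 2 dendritic cell marker, stood at 1460 to 3339 CPM. Macrophage markers were also present, with C1qb at 1904 to 2890 CPM and Adgre1 at 59.2 to 88.5 CPM.

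Of the 8 receptors, Ccr1 was higher and Cxcr3 and Cx3cr1 were lower in dendritic cells from MAVS KO hosts. Cxcr3 was 4.76-fold lower, Cx3cr1 2.67-fold lower and Ccr1 1.39-fold higher. Of the others, Ccr2, Cxcr2, Cxcr4 and Cxcr6 did not pass the test, and Ccr9 had too few counts to be tested. The 3 calls among 7 tested receptors stand beside a share of 2.81% called among all tested genes (1.76% higher, 1.05% lower). The WT and MAVS KO libraries did not overlap for 4 receptors, against 21.8% of all tested genes: Ccr1 on the higher side (11.2% of all genes) and Ccr2, Cxcr3 and Cx3cr1 on the lower (10.6%). The median log2 fold change of the 7 was -0.04, beside -0.0022 for all tested genes. In bulk RNA, fewer cells of a type and less RNA per cell cannot be told apart.

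**Figure D1:**
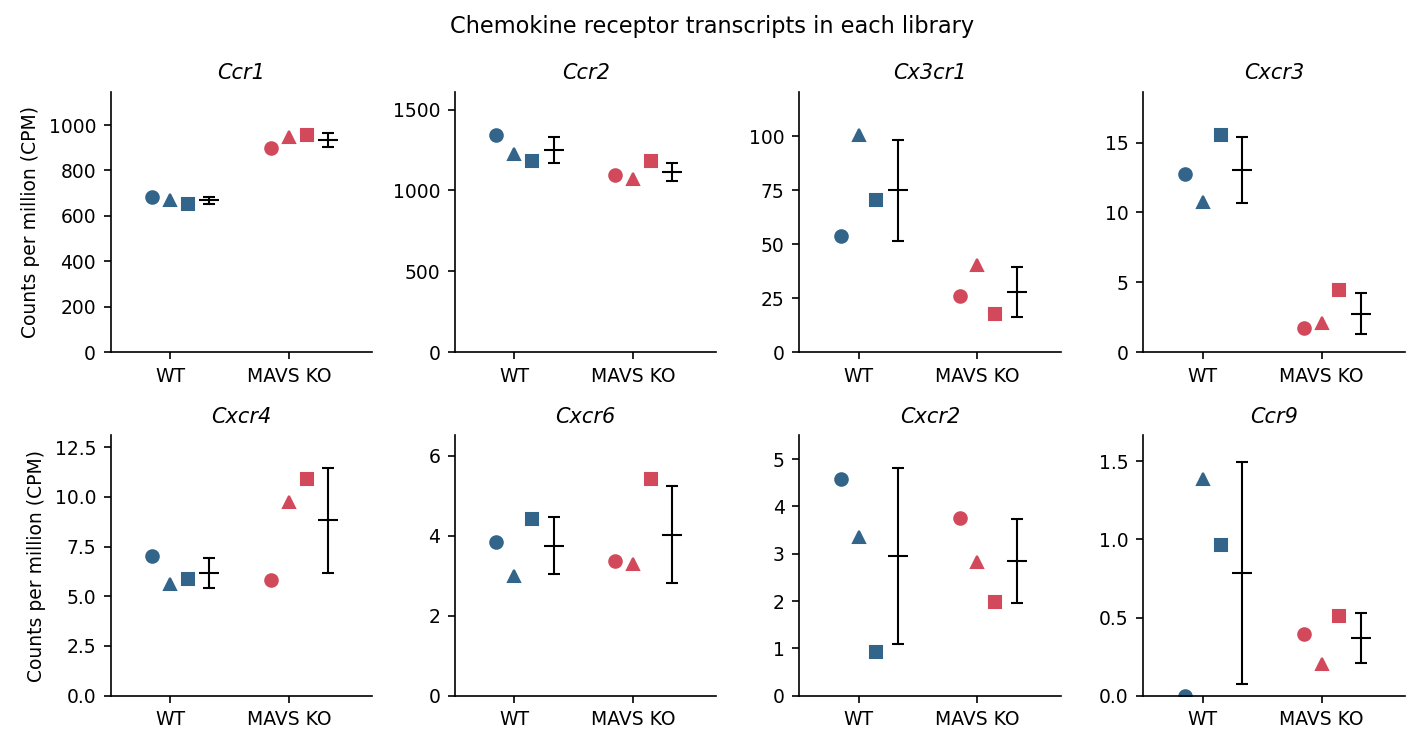
Each panel plots 1 receptor in CPM (linear axis from 0), with 1 point per library (circle, triangle and square for replicates 1, 2 and 3), and the mean and SD of each group beside the points. Ccr1 is higher in all 3 MAVS KO libraries, Cxcr3 and Cx3cr1 are lower in all 3, and Ccr9 has no count in WT replicate 1.

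The inflammatory CC receptors Ccr1 and Ccr2 took nearly all counts of the 8 genes. Without correction for length, they held 96.1, 93.8 and 94.9% in the WT libraries and 98.0, 97.2 and 98.1% in the MAVS KO libraries. The summed level of the 8 receptors was 1940 to 2110 CPM in WT and 2040 to 2180 CPM in MAVS KO.

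Ccr1 (ENSMUSG00000025804, protein-coding, chromosome 9, 123962124 to 123968692, minus strand, mm10) encodes a receptor for CCL3, CCL5 and related ligands on monocytes, macrophages and neutrophils. It stood at 684.5, 671.6 and 653.9 CPM in WT and at 901.1, 947.4 and 954.7 CPM in MAVS KO. Every MAVS KO library lay above every WT library, and the gap between the groups was wider than the spread within either. The means were 670.0 ± 15.4 and 934.4 ± 29.1 CPM (SD, n = 3), a log2 fold change of 0.48 (SE 0.09, 95% interval 0.29 to 0.67, edgeR adjusted p = 0.0244). The adjusted p of Ccr1 was 0.0793 with scaling by library size alone (log2 fold change 0.31). It was 0.059, 0.0516, 0.0623, 0.1 and 0.122 without WT replicates 2 and 3 and MAVS KO replicates 1, 2 and 3, in that order, at log2 fold changes of 0.46 to 0.51.

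Ccr2 (ENSMUSG00000049103, protein-coding, chromosome 9, 124101950 to 124113557, plus strand) encodes the receptor for CCL2. It was measured at 1341, 1226 and 1183 CPM in WT and at 1095, 1069 and 1180 CPM in MAVS KO. The groups did not overlap, but WT replicate 3 and MAVS KO replicate 3 lay next to each other. The log2 fold change was -0.17 (SE 0.09, 95% interval -0.37 to 0.04, edgeR adjusted p = 0.443), which did not pass the test. Receptor genes of a family share sequence, so the count of Ccr2, and any ratio to it, is uncertain to the extent that such reads were assigned to it.

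Ccr1 and its closest relative Ccr1l1 were 78.1% identical over 1043 bases with a longest shared coding run of 31 bases, and their sum gave the log2 fold change of Ccr1 alone (0.48, adjusted p = 0.0244).

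Within each library, Ccr1 was set against Ccr2. There were 51.0, 54.8 and 55.3 counts of Ccr1 per 100 counts of Ccr2 in WT and 82.3, 88.6 and 80.9 in MAVS KO. The ratio was higher in all 3 knockout libraries, 83.9 ± 4.1 against 53.7 ± 2.31 (SD, n = 3). A two-sided exact permutation test gave p = 0.1, the smallest value that 3 against 3 libraries allow. With Ccr1 higher and Ccr2 lower in every knockout library, the ratio had to separate the groups. This p-value therefore adds nothing to the levels of the 2 genes. Since this ratio uses counts from the same library, it does not depend on how the libraries are scaled.

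Cx3cr1 (ENSMUSG00000052336, protein-coding, chromosome 9, 119901616 to 120069879, minus strand) encodes the receptor for the membrane-bound chemokine CX3CL1. It stood at 54.0, 100.5 and 70.4 CPM in WT and at 25.8, 40.6 and 17.6 CPM in MAVS KO. WT replicate 2 was the highest and MAVS KO replicate 3 the lowest, and the groups did not overlap. The means were 75.0 ± 23.6 and 28.0 ± 11.6 CPM (SD, n = 3). Cx3cr1 fell by 1.42 on the log2 scale (SE 0.29, 95% interval -2.07 to -0.77, edgeR adjusted p = 0.0343). Its adjusted p was 0.0873, 0.0704, 0.111 and 0.13 without WT replicates 2 and 3 and MAVS KO replicates 1 and 3, in that order, at log2 fold changes of -1.16 to -1.46. Cx3cr1 shares 78 exonic bases with the antisense gene Gm33858. Per 100 counts of Ccr2 there were 4.03, 8.2 and 5.95 counts of Cx3cr1 in WT and 2.36, 3.79 and 1.5 in MAVS KO, again without overlap (two-sided exact permutation p = 0.1, the smallest possible).

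Cxcr3 (ENSMUSG00000050232, protein-coding, chromosome X, 101731535 to 101734269, minus strand) encodes the receptor for the interferon-induced chemokines CXCL9, CXCL10 and CXCL11, best known on T cells and natural killer cells and also found on dendritic cells. It was at 12.8, 10.8 and 15.5 CPM in WT and at 1.74, 2.08 and 4.47 CPM in MAVS KO. The highest knockout library lay well under the lowest WT library. The means were 13.02 ± 2.38 and 2.76 ± 1.49 CPM (SD, n = 3), from 202 to 337 counts in WT and 31 to 61 in MAVS KO. Cxcr3 fell by 2.25 on the log2 scale (SE 0.36, 95% interval -3.04 to -1.46, edgeR adjusted p = 0.0164). Without MAVS KO replicate 1 its log2 fold change was -2.00 (adjusted p = 0.0564) and without replicate 2 it was -2.09 (adjusted p = 0.0587).

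**Figure D2:**
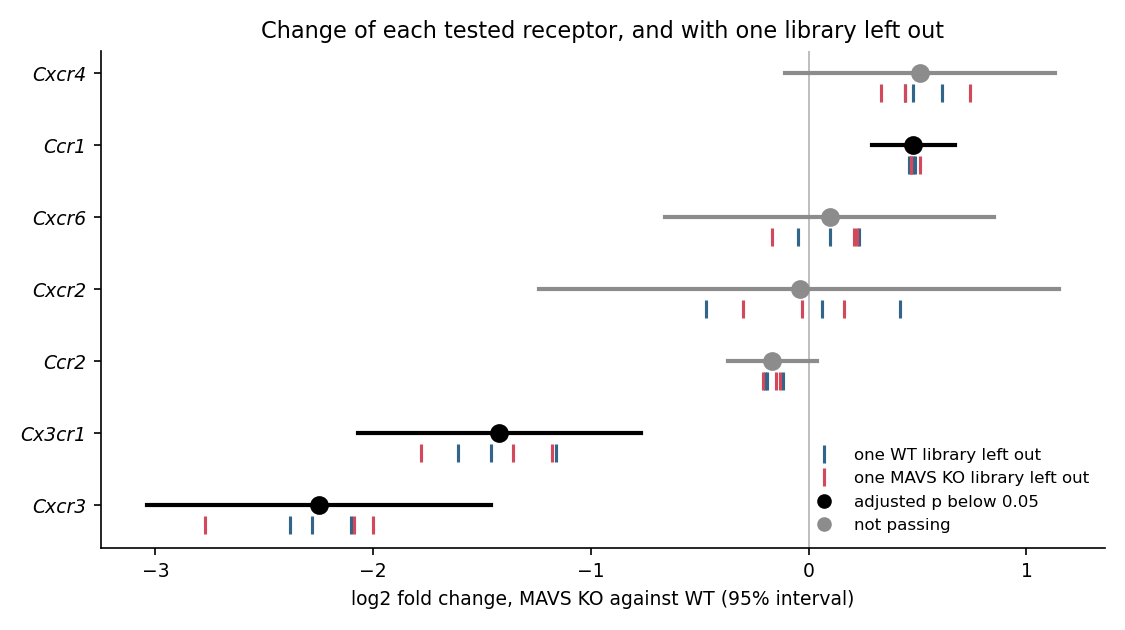
Points give the log2 fold change of each tested receptor, MAVS KO against WT, with the 95% interval derived from the edgeR F test as bars. The short ticks give the value with each library left out in turn. The ticks keep the sign for Ccr1, Ccr2, Cx3cr1, Cxcr3 and Cxcr4 and fall on both sides of 0 for Cxcr2 and Cxcr6.

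Cxcr4 (ENSMUSG00000045382, protein-coding, chromosome 1, 128588199 to 128592293, minus strand) encodes the receptor for CXCL12, which holds leukocytes in bone marrow. It was at 7.05, 5.61 and 5.85 CPM in WT and at 5.84, 9.72 and 10.9 CPM in MAVS KO. MAVS KO replicates 2 and 3 were the highest, while replicate 1 lay within the WT range. The log2 fold change was 0.51 (SE 0.28, 95% interval -0.11 to 1.13, edgeR adjusted p = 0.423), so that a change of up to 1.13 in the log2 level was not resolved at this depth and number of libraries.

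Cxcr6 (ENSMUSG00000048521, protein-coding, chromosome 9, 123806475 to 123811760, plus strand) encodes the receptor for CXCL16, a membrane-bound chemokine made by dendritic cells, and is carried mainly by T cells and innate lymphocytes. It was at 3.85, 2.99 and 4.42 CPM in WT and at 3.37, 3.29 and 5.42 CPM in MAVS KO, and the groups overlapped. Its log2 fold change was 0.10 (SE 0.34, 95% interval -0.66 to 0.85, edgeR adjusted p = 0.932). With scaling by library size alone it was -0.07, and it was -0.05 without WT replicate 2 and -0.17 without MAVS KO replicate 3.

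Cxcr2 (ENSMUSG00000026180, protein-coding, chromosome 1, 74153989 to 74161246, plus strand) encodes the neutrophil receptor for CXCL1 and CXCL2. It was at 4.58, 3.36 and 0.921 CPM in WT and at 3.76, 2.82 and 1.98 CPM in MAVS KO. The knockout values lay inside the WT range, and the log2 fold change was -0.04 (SE 0.54, 95% interval -1.24 to 1.15, edgeR adjusted p = 0.983). Its sign turned in limma-voom (0.26), with the replicate number as a block (0.13), and without WT replicate 1 (0.42), WT replicate 2 (0.06) or MAVS KO replicate 3 (0.16). The neutrophil genes Ly6g and S100a9 were under 1 CPM in every library, among 7 of the 12 neutrophil markers that were. Mmp8, on the same list, was at 28.6 ± 2.61 CPM in WT and 61.0 ± 2.87 CPM in MAVS KO and passed the test. Cxcr2 was 90.9% identical over 537 bases to A230085B16Rik.

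Ccr9 (ENSMUSG00000029530, protein-coding, chromosome 9, 123678439 to 123784330, plus strand) encodes the gut-homing receptor for CCL25, found on plasmacytoid dendritic cells and thymocytes. It had 0, 26 and 21 counts in WT and 7, 3 and 7 counts in MAVS KO. WT replicate 1 had none, where a floor set at 3 counts would be 0.148 CPM. The 95% Poisson interval of that count reaches 3.69 counts, by counting error only. The other WT libraries had 1.39 and 0.967 CPM. The 2 groups overlapped, and the gene did not pass the filter on low counts, like 52.6% of the table. Fitted without that filter, the log2 fold change was -1.08 (SE 1, 95% interval -3.05 to 0.89, edgeR adjusted p = 0.736). That fit gave Cx3cr1 an adjusted p of 2.04e-16, against 0.0343 with the filter, so its intervals may be too narrow. Ccr9 shares 1932 exonic bases with AC165425.1 on the opposite strand and 269 with Gm17200 on its own, so its few counts could be split among them. Of the 10 plasmacytoid dendritic cell markers, Ly6d, Cox6a2 and Klk1 were under 1 CPM in every library, and Siglech had 3 to 28 counts (0.148 to 2.05 CPM). Bst2 (50.6 to 93.5 CPM), Tcf4 (42.4 to 65.1 CPM) and Runx2 (11.9 to 16.6 CPM), which other cells also express, were detected in every library. None of the 8 tested passed by edgeR, DESeq2 or limma-voom, and 1 was higher at an unadjusted p of 0.05.

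Divided by the length of all annotated exons, the WT means ran in the order Ccr1 (236.5 CPM per kb), Ccr2 (184.9), Cx3cr1 (16.6), Cxcr3 (7.52), Cxcr4 (3.41), Cxcr6 (1.94), Cxcr2 (0.970) and Ccr9 (0.0765). In MAVS KO the order was Ccr1 (329.8 CPM per kb), Ccr2 (164.9), Cx3cr1 (6.22), Cxcr4 (4.88), Cxcr6 (2.08), Cxcr3 (1.596), Cxcr2 (0.936) and Ccr9 (0.0360). By these means, Cxcr3 thus stood above Cxcr4 and Cxcr6 in WT and below both in MAVS KO. In WT the ranges of neighbours in this order did not overlap. In MAVS KO the ranges of Cx3cr1 and Cxcr4, of Cxcr6 and Cxcr3, and of Cxcr3 and Cxcr2 overlapped, so these neighbours did not differ beyond their spread. The order of the first pair depended on the length used: the WT mean of Ccr2 was 218.2 CPM per kb by its principal transcript, where the ranges overlapped, and 551.9 by its shortest coding transcript. Other neighbours depended on it too. By the shortest coding transcript, Cxcr3 and Cxcr4 were closer in WT, at 7.52 and 6.84 CPM per kb. In MAVS KO that length put Cxcr4 (9.78) above Cx3cr1 (8.88).

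Cell type markers were read beside these receptors, as counts of called genes and as summed levels. No T cell marker passed with Cxcr3 by edgeR (0 of 14 tested; 1 higher and 1 lower at an unadjusted p of 0.05; 1 lower by DESeq2 and 0 by limma-voom). Their sum was 45.7 to 64.2 CPM in WT and 35.6 to 50.5 CPM in MAVS KO, and Cd2 weighed most in it. The median log2 fold change of the 14 was 0.11, and single markers went both ways. Cd3e, at only 3 to 21 counts per library, was at 0.585 ± 0.413 CPM in WT and 1.05 ± 0.462 CPM in MAVS KO. Its groups overlapped (log2 fold change 0.83, edgeR adjusted p = 0.667). Cd2 was at 25.0 ± 7.81 and 13.6 ± 1.23 CPM, without overlap (-0.88, edgeR adjusted p = 0.0687). The part of T cells in the change of Cxcr3 was not tested. Natural killer cell markers passed in 0 of 10 cases by edgeR, DESeq2 and limma-voom (1 higher at an unadjusted p of 0.05), with sums of 91.8 to 148 and 98.3 to 142 CPM. B cell markers were lower in sum (79.2 to 105 against 49.9 to 60.8 CPM), with 1 of 3 tested genes, Ighm, lower, and Ms4a1 under 1 CPM in every library.

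Markers of type 1 conventional dendritic cells, which take up dead cells and cross-present antigen, were in part lower alongside Cxcr3. Of 12 tested, 5 were lower in MAVS KO by edgeR (Xcr1, Snx22, Wdfy4, Itgae and Gcsam) and 7 did not pass, among them Clec9a (log2 fold change -0.07) and Irf8 (0.21). At an unadjusted p of 0.05, 0 were higher and 9 lower. Cd24a (-0.5), Cadm1 (-0.87), Tlr3 (-0.66) and Batf3 (-0.65) were lower at that p but did not pass after adjustment. DESeq2 called 5 lower and limma-voom 3. The list median was -0.76, and the sums overlapped, at 1010 to 1580 CPM in WT and 1010 to 1130 CPM in MAVS KO. Naaa (means of 577.9 in WT and 465.9 CPM in MAVS KO) and Irf8 (377.8 and 436.3 CPM) weighed most in these sums. The sums thus say little of the less abundant markers. There were 35.8, 49.3 and 32.5 counts of Cxcr3 per 100 counts of Xcr1 in WT and 24.0, 32.6 and 45.9 in MAVS KO. This ratio overlapped between the groups (two-sided exact permutation p = 0.5). The part of these cells in the change of Cxcr3 was not tested.

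Markers of mononuclear phagocytes, the cells known to carry Ccr1, Ccr2 and Cx3cr1, were read in the same way. None of the 12 macrophage markers passed by edgeR or limma-voom, but 8 were higher and 1 lower at an unadjusted p of 0.05, and DESeq2 called 4 higher and 1 lower. Their median log2 fold change was 0.32, with sums of 7410 to 8430 CPM in WT and 8850 to 9440 CPM in MAVS KO. Of the 12 monocyte markers, only Chil3 passed by edgeR (log2 fold change 2.46, SE 0.51, adjusted p = 0.036). At an unadjusted p of 0.05, 1 was higher and 2 were lower, and DESeq2 called 1 higher and 1 lower. The median of the 12 was -0.26. Their sum was 4780 to 6130 CPM in WT and 8080 to 16500 CPM in MAVS KO, and Chil3 made the difference: without it the other 11 summed to 3110 to 5540 CPM in WT and 4030 to 4850 CPM in MAVS KO, which overlap. Fn1, at means of 3436 and 3722 CPM, made up most of the sum of these 11. Type 2 conventional dendritic cell markers gave 1 higher (Sirpa) and 1 lower (Cd209a) of 9 tested by edgeR, with a median of -0.09. At an unadjusted p of 0.05, 2 were higher and 3 lower, and DESeq2 called 2 higher and 1 lower. Their sums were 2360 to 2630 CPM in WT and 2730 to 4410 CPM in MAVS KO. Mgl2 (means of 1593 and 2519 CPM, groups overlapping) and Sirpa (561.6 and 826 CPM) weighed most in these sums. The part of these cells in the changes of Ccr1 and Cx3cr1 was not tested.

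Among other chemokine receptors, Xcr1, the receptor of cross-presenting dendritic cells for XCL1, was at 35.6, 21.9 and 47.7 CPM in WT and 7.25, 6.37 and 9.74 CPM in MAVS KO, lower in all 3 (log2 fold change -2.18, SE 0.29, edgeR adjusted p = 0.00994). Ccr7, which guides mature dendritic cells to lymph nodes, was at 39.4, 27.2 and 35.9 CPM in WT and at 101.0, 60.1 and 60.9 CPM in MAVS KO, higher in all 3 (log2 fold change 1.12, SE 0.22, adjusted p = 0.0288). The Ccr7 call was lost without each single library (adjusted p of 0.0508 to 0.0792). The chemerin-binding Ccrl2 (0.36, adjusted p = 0.0727), the scavenging receptor Ackr3 (0.60, adjusted p = 0.216), the CCL1 receptor Ccr8 (-0.46, adjusted p = 0.69) and the chemerin receptor Cmklr1 (0.05, adjusted p = 0.959) did not pass.

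The receptor genes Ccr9, Cxcr6, Ccr1 and Ccr2 lie in order on chromosome 9, with Xcr1 among them. Measured from the start of Ccr1, Cxcr6 begins 162 kb before it, Xcr1 107 kb before it and Ccr2 133 kb after it. Neighbouring genes did not share a direction. Xcr1 was lower (-2.18), Ccr1 was higher (0.48), and Ccr2 and Cxcr6 beside them did not pass (-0.17 and 0.10). Cx3cr1 lies apart on the same chromosome, and of its 8 tested neighbours within 500 kb only the ribosomal protein gene Rpsa was lower (-0.68, edgeR adjusted p = 0.0382). None of the 13 tested neighbours of Cxcr2 passed by edgeR, DESeq2 or limma-voom, and 0 had an unadjusted p below 0.05. Of the 12 tested neighbours of Cxcr3 the mitotic helicase gene Ercc6l was lower (-1.28, adjusted p = 0.0472), and of the 6 of Cxcr4 the replication helicase gene Mcm6 was lower (-0.84, adjusted p = 0.0252). The calls of Rpsa, Ercc6l and Mcm6 were each lost without WT replicates 1 and 2 and MAVS KO replicates 1, 2 and 3 in turn (adjusted p of 0.0524 to 0.165), that of Ercc6l also in limma-voom (0.0796) and with the replicate block (0.066), and that of Rpsa with the block (0.053).

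**Figure D3:**
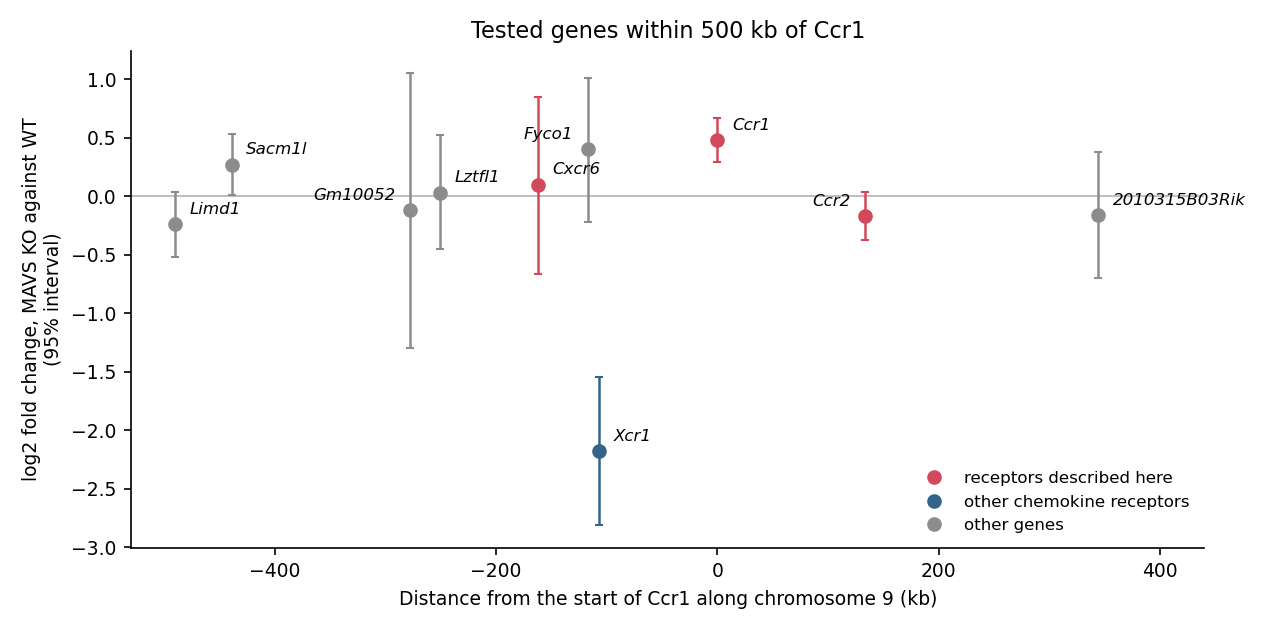
Log2 fold change (MAVS KO against WT) of tested genes within 500 kb of the start of Ccr1, plotted against the distance from that start in kb, with 95% intervals as bars. Xcr1 lies below 0, Ccr1 lies above 0, and the interval of Ccr2 covers 0.

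The bases upstream of Ccr1 and Cxcr3 are shown because these receptors moved in opposite directions. They come from the RefSeq promoter table (GRCm38.p6), which held all 3 called receptors. For Cx3cr1 the whole 250-base window lies in annotated exons and is not printed, and for Cxcr3 the 122 bases nearest the start are left out for the same reason. A set of 5 motifs was searched on both strands: the STAT site TTCNNNGAA, the interferon-stimulated response element (ISRE), the PU.1 core GAGGAA, the RUNX site TGTGGT and the C/EBP site TTGCNNCAA. Capitals mark the matches.
Ccr1, chr9:123968693-123968942, minus strand: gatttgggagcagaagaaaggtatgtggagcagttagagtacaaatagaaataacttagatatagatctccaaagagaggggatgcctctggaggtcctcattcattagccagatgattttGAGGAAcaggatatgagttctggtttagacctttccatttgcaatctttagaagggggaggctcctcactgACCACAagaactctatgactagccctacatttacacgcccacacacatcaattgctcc
Cxcr3, chrX:101734270-101734397, minus strand: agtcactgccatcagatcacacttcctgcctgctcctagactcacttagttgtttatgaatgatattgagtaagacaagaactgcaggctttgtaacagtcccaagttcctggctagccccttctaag
The Ccr1 window holds 1 PU.1 core, 129 bases upstream of the start, and 1 RUNX site on the reverse strand, 58 bases upstream. Of the 32851 promoters in the table, 23.3% hold the PU.1 core and 14.0% the RUNX site in the same 250 bases. The STAT site, the ISRE and the C/EBP site, held by 7.02, 2.98 and 1.74% of promoters, are not in the Ccr1 window. None of the 5 motifs is in the 128 bases of Cxcr3, where 3.68, 1.64, 12.8, 7.52 and 0.986% of promoters hold them, in the order listed above.

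The ligands of these receptors were measured in the same cells. Of 21 listed, 19 were tested, of which 3 were higher and 0 lower in MAVS KO by edgeR. Among all tested genes 1.76% were higher and 1.05% lower. At an unadjusted p of 0.05, 10 ligands were higher and 0 lower, and the median log2 fold change of the 19 was 0.40. The summed level of the ligands was 6290 to 8060 CPM in WT and 10700 to 12100 CPM in MAVS KO. Ccl6, at means of 2891 and 5747 CPM, weighed most in these sums, which say little of the less abundant ligands. The number called higher was 1 with scaling by library size alone, 8 without the filter on low counts, 5 by DESeq2, and 1 without WT replicate 2 or any single MAVS KO replicate. By DESeq2 and limma-voom 0 were lower.

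Among the CCR1 ligands, Ccl6 was at 3390, 2294 and 2989 CPM in WT and at 6485, 5606 and 5150 CPM in MAVS KO. It was higher in all 3 knockout libraries (log2 fold change 0.99, SE 0.14, edgeR adjusted p = 0.0126), and without MAVS KO replicate 1 its adjusted p was 0.0505. The other CCR1 ligands did not pass: Ccl5 had a log2 fold change of 1.34 (SE 0.37, adjusted p = 0.0962), Ccl3 of 0.40 (adjusted p = 0.302), Ccl7 of 0.33 (adjusted p = 0.674) and Ccl9 of 0.14 (adjusted p = 0.673). Ccl5 passed without WT replicate 3 (adjusted p = 0.00847). The CCR2 ligands Ccl2 (0.27, adjusted p = 0.494) and Ccl12 (0.81, adjusted p = 0.0949) did not pass either.

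Each of the 3 CXCR3 ligands had a higher mean in MAVS KO, and Cxcl9 passed. Cxcl9 was at 98.8, 78.9 and 94.8 CPM in WT and at 117.1, 224.0 and 200.2 CPM in MAVS KO, higher in all 3 (log2 fold change 0.99, SE 0.21, edgeR adjusted p = 0.0364). Its adjusted p was 0.0562 with scaling by library size alone, 0.0506 in limma-voom and 0.0725 to 0.158 without any 1 of WT replicates 1, 2 and 3 and MAVS KO replicates 2 and 3. Cxcl10 was at 121.3, 70.0 and 96.1 CPM in WT and at 130.5, 170.2 and 157.2 CPM in MAVS KO, without overlap but short of the threshold (0.67, SE 0.19, adjusted p = 0.0935). Cxcl10 passed without WT replicate 1 (adjusted p = 0.0467). Cxcl11 had a log2 fold change of 0.53 (SE 0.37, adjusted p = 0.554). Cx3cl1, the ligand of CX3CR1, was at 9.15 ± 3.35 CPM in WT and 8.60 ± 0.743 CPM in MAVS KO (-0.09, SE 0.29, adjusted p = 0.927), and its sign turned without WT replicate 2 or 3 (0.10 and 0.03). The CXCR2 ligand Cxcl2 was at 1453, 1519 and 1450 CPM in WT and 1812, 2322 and 2092 CPM in MAVS KO (0.49, SE 0.10, adjusted p = 0.0364), a call lost with scaling by library size alone (0.108) and without each single library (0.0511 to 0.152). Cxcl16, the ligand of CXCR6, gave 0.30 (SE 0.12, adjusted p = 0.243).

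Genes that carry the signal below the receptors were read as a list. Of 34 tested, 0 were higher and 2 lower by edgeR, beside 1.76% higher and 1.05% lower among all tested genes. The median log2 fold change of the 34 was -0.01. Of these 34, DESeq2 and limma-voom each called 1 higher and 2 lower, and 4 were higher and 5 lower at an unadjusted p of 0.05. Rgs18, which shortens G protein signals in myeloid cells, was at 19.9 ± 1.29 CPM in WT and 6.69 ± 2.32 CPM in MAVS KO (-1.56, SE 0.26, adjusted p = 0.0171). Elmo1, a partner of DOCK2 in activating Rac, was at 106.9 ± 12.9 and 67.5 ± 1.83 CPM (-0.66, SE 0.12, adjusted p = 0.0232). Rgs18 lost its call without MAVS KO replicate 1 or 2 (adjusted p of 0.0515 and 0.0537), and Elmo1 without WT replicate 2 or MAVS KO replicate 1, 2 or 3 (0.0604, 0.0808, 0.101 and 0.104). Rgs1 (0.43, adjusted p = 0.0588) and the G protein subunit Gnb1 (0.55, adjusted p = 0.164) did not pass. Rgs1 passed without WT replicate 1 (adjusted p = 0.0456).

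The genes whose levels ran closest to each called receptor over the 6 libraries were found among 8647 protein-coding genes with a mean of at least 5 CPM. These correlations include the difference between the groups and are given as a description. For Ccr1 they were Wsb2 (Pearson r 0.9953), Cryzl1 (0.9928) and Rab1a (0.9921), and 74 genes had r above 0.95. For Cxcr3 they were Ptpn22 (0.9955), the type 2 dendritic cell lectin Cd209a (0.9951) and Ckb (0.992), with 27 genes above 0.95. For Cx3cr1 they were Rpa3 (0.9911), Srgap3 (0.9876) and Ezh2 (0.9875), with 47 above 0.95. Cd209a was at 86.5, 60.8 and 93.2 CPM in WT and 16.5, 19.6 and 30.5 CPM in MAVS KO, in the same order of libraries as Cxcr3.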

How the data were processed

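RNA sequencing was done on 3 WT and 3 MAVS KO samples. The deposited values are raw counts per Ensembl gene, made by the authors. The submitters' processing notes name mm10, HISAT2, HISAT, HTSeq and DESeq2 without role. Versions, annotation release and strandedness were not given in the sources used here, so antisense, overlapping and near-identical genes could share counts. GENCODE M21 (GRCm38) gave symbols and positions for 26383 identifiers, and 136 did not match.

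Counts were tested with edgeR 4.0.16 (R 4.3.3): genes were kept by filterByExpr at a minimum count of 10 and a minimum total of 15, libraries were scaled by TMM, and the quasi-likelihood F test was run with Benjamini-Hochberg adjustment over 12580 genes and a threshold of 0.05. Standard errors were derived from the log2 fold change and the F statistic of the test, and 95% intervals from these with the t distribution. The procedure was tested on simulated data. Correlations used log2(CPM + 1). Near copies were found by blastn among transcripts. Alternatives were library size alone, DESeq2 size factors, no low-count filter, a mean of at least 5 CPM, DESeq2 1.42.0, limma-voom 3.58.1, a replicate block, robust dispersion and leaving out each library. Other transcript lengths, leaving out libraries from the Ccr1 to Ccr2 ratio and summing monocyte markers without Chil3 were added after seeing the data.

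The receptors and lists were chosen with earlier results of these data known. Named beside the receptors were Mavs, up to 4 genes of each pathway list by smallest p, ligands of called receptors, other chemokine receptors with a mean of at least 1 CPM, up to 2 markers per list, up to 3 neighbours within 500 kb and the 3 closest genes by correlation. Markers beyond 2 of a list (such as Mmp8, Ighm, Snx22, Irf8, Sirpa and Bst2) and Ccl2, Ccl12, Cxcl3 and Cxcl16 are outside this rule: they were picked with their values in view. Summed levels of lists include untested genes. Of the genes this rule names, some are not reported here.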

Additional observations from a re-analysis of the deposited data

How the results depend on the processing

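Cxcr3 and Cx3cr1 passed under all 8 alternatives other than leaving out libraries (log2 fold changes of -2.42 to -2.25 and -1.59 to -1.42). Ccr1 passed under 7 and had 0.31 with library size alone. Ccr2 and Cxcr4 never passed. The genes called numbered 924 without the low-count filter and 738 by DESeq2, against 354. Without the filter the edgeR adjusted p was 2.04e-16 for Cx3cr1 and 9.5e-11 for Cxcr3, against 0.0343 and 0.0164 in the main fit. The fit without the filter was thus less cautious for such genes, and its added calls carry less weight. Without that filter Ackr3, Ccl5, Ccl12, Cxcl3, Cxcl10, Gnb1 and Rgs1 also passed, by DESeq2 Ccrl2, Ccl12, Cxcl10 and Rgs1, by limma-voom Ccl5 and Rgs1, and with the replicate block Ccl5 and Ccl12. Leaving out single libraries, which also leaves fewer samples, gave 36 to 277 genes and 0 to 3 receptors called, and log2 fold changes of 0.46 to 0.51 for Ccr1, -2.77 to -2.00 for Cxcr3, -1.78 to -1.16 for Cx3cr1, -0.47 to 0.42 for Cxcr2 and -0.17 to 0.23 for Cxcr6. Cxcr2 was 0.26 in limma-voom and Cxcr6 -0.07 with library size alone, which also turned Cmklr1 to -0.13. With libraries left out, Cmklr1 ran from -0.10 to 0.21 and Cx3cl1 from -0.37 to 0.10. The cause was not tested. Deviations of same-numbered samples from their group means correlated at 0.025, 0.119 and -0.022, and those of differently numbered samples at -0.142 to 0.136. With 3 libraries per group this cannot show whether same-numbered samples share a batch. The labels give only the number. The replicate block called 414 genes and the same number of receptors, 3, with Cxcr2 at 0.13, Ccr1 at 0.48, Cxcr3 at -2.33 and Cx3cr1 at -1.45, and 5 ligands higher. The Ccr1 to Ccr2 ratio kept its direction without each library, as it had to with every knockout library above every WT library. At this depth Ccr9 could not be tested, and Cxcr2 and Cxcr6, at under 100 counts per library, had 95% intervals of -1.24 to 1.15 and -0.66 to 0.85.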
